A study of Mus musculus with 8 samples.

Results

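Natural killer (NK) cells make a small set of chemokines, secreted proteins that draw other leukocytes to a site. The 7 genes described here are the chemokine genes *Ccl1*, *Ccl3*, *Ccl4*, *Ccl5*, *Ccl9*, *Xcl1* and *Cxcl10*, taken by name as chemokines that NK cells can make, out of 54838 gene identifiers counted in each library. All 7 were found in the files, and 5 passed the filter on low counts that came before testing. *Ccl1* and *Cxcl10* did not pass it. The cells came from mouse spleen and were sorted as CD45+/CD49b+/CD3-, where CD49b is an integrin that marks NK cells. A culture of 12 to 16 h with cytokines followed the sort and came before the cells were frozen. Healthy donor cells (hNK, 4 libraries) came from WT FVB/n mice, an inbred strain. Cells of tumour-bearing mice (teNK, 4 libraries) came from MMTV-PyMT mice, in which a mammary tumour virus promoter drives the polyoma middle T oncogene and mammary tumours arise. The strain of the MMTV-PyMT mice, the age of either group, the cytokines and the number of mice in a library are not given in the sources used here. The labels do not say whether replicates are separate animals, so p-values here measure the spread between libraries, which may be technical.

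Chemokines act through receptors of the G protein-coupled family on the cells they attract. CCL3, CCL4 and CCL5 are CC chemokines of which activated NK cells are a known source. XCL1 acts through XCR1 on a class of dendritic cells that presents antigen to T cells. CXCL10, a chemokine induced by interferon, acts through CXCR3, CCL1 through CCR8, and CCL9, mostly a product of myeloid cells, through CCR1. Stimulation of activating receptors or cytokine receptors raises transcription of several of these genes through NF-kappa-B, AP-1 and NFAT factors.

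The bases in front of 4 of the genes are shown. For these genes every teNK library was above every hNK library, though *Cxcl10* did not enter the main test. Their upstream sequences differ in the letters that such factors are known to bind. RefSeq (GRCm38.p6) held a promoter entry for 5 of the 7 members, namely *Ccl3*, *Ccl9*, *Xcl1*, *Cxcl10* and *Ccl1*, and not for *Ccl4* and *Ccl5*. The 250 bases before the annotated start are written 5′ to 3′, and capitals mark every match on either strand to any of 4 motifs.
Ccl3, chr11:83649379-83649628, minus strand: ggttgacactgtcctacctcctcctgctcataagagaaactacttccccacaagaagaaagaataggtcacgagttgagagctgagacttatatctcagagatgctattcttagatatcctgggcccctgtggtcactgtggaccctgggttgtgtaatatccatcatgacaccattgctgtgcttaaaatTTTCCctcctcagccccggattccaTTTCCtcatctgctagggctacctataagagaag
Ccl9, chr11:83578637-83578886, minus strand: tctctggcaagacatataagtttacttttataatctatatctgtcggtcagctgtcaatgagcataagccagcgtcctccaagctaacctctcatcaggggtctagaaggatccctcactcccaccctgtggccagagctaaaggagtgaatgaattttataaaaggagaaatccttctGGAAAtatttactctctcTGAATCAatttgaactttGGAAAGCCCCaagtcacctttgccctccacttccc
Xcl1, chr1:164935523-164935772, minus strand: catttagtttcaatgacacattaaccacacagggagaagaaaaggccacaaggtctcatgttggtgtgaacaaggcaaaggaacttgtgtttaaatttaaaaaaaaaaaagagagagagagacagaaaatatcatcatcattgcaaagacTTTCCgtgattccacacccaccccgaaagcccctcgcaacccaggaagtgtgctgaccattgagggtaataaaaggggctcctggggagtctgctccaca
Cxcl10, chr5:92348890-92349139, minus strand: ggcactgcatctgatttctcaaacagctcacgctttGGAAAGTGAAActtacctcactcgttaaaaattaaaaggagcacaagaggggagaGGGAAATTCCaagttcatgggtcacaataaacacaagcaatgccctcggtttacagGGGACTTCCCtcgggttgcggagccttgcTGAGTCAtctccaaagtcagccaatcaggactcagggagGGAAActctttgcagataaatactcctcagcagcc
The motifs were the kappa-B consensus, the AP-1 site TGANTCA, the interferon-stimulated response element (GAAA, 2 bases of any kind, GAAA) and the NFAT core GGAAA. *Cxcl10* held 2 kappa-B matches, 1 AP-1 match, 1 interferon element and 3 NFAT cores, of which 1 overlapped the interferon element and 1 a kappa-B match. *Ccl9* held 1 kappa-B match, 1 AP-1 match and 2 NFAT cores, 1 of them inside the kappa-B match. *Ccl3* held 2 NFAT cores and *Xcl1* held 1, and neither had a match to the other 3 motifs in this window. *Ccl1*, which had no read in teNK and is not printed, held 3 NFAT cores and no match to the other 3 motifs. Whether the number of matches goes with the direction of change was not tested. *Ccl1* had 5 reads in all, and *Ccl4* and *Ccl5* had no promoter entry. Of 32851 windows of the same length before annotated starts, 3.9% held the kappa-B consensus, 6.75% the AP-1 site, 2.98% the interferon element and 55.6% the NFAT core. A match describes the letters and does not show binding.

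The hNK libraries held 5202131 to 12419324 gene reads and the teNK libraries 13111043 to 16209895, so counting error is larger in hNK. Levels are given as CPM, read counts scaled to library size. A floor of 3 counts was on average 0.381 CPM in hNK and 0.215 CPM in teNK, and floors and intervals cover counting error only. Of 13903 tested genes, 51.9% were called between the groups (edgeR quasi-likelihood test, Benjamini-Hochberg adjusted p under 0.05), 26.4% higher and 25.6% lower in teNK. With scaling by library totals alone, 34.6% of calls were higher, against 50.7% with the scaling used here. Library totals alone moved the median log2 fold change of all tested genes by -0.13 from that of the scaling used here. The NK genes *Ncr1* (NKp46) and *Itga2* (CD49b) were at 171 CPM or more in every library, and *Cd3e*, a T cell gene, at 0.698 to 4.34 CPM. Other T cell genes were higher. *Cd3g* measured 14.9 to 32.7 CPM in hNK and 19.9 to 26.6 CPM in teNK. *Cd3d* was called higher in teNK, with means of 2.25 CPM in hNK and 4.91 CPM in teNK. Of the 10 T cell genes listed, 4 were too low to be tested. The 12 NK marker genes summed to 4267 to 5362 CPM in hNK and 8528 to 9185 CPM in teNK, with 10 higher, 1 lower and 1 not called. Their part in the chemokine results was not tested.

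All 5 tested members were called higher in teNK, beside 26.4% of tested genes called in that direction. A change of at least 4-fold was called higher for 2.93% of tested genes, and the smallest fold among the 5 members was 4.91. *Ccl9* passed the low-count filter through its teNK reads, so the count of 5 describes these genes and is not support for them as a group. In bulk RNA, more cells that transcribe a gene and more RNA per cell cannot be told apart. For each of the 5, every teNK library was above every hNK library, as was so for 24.1% of tested genes, and 22.4% showed the reverse order.

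*Ccl3* (ENSMUSG00000000982, GRCm38 chromosome 11, 83647844 to 83649355, minus strand) encodes the chemokine also called MIP-1 alpha. It measured 62.8, 70.1, 87.9 and 81.5 CPM in hNK replicates 1 to 4. In teNK replicates 1 to 4 it measured 838, 697, 798 and 747 CPM. Every teNK library was therefore far above the highest hNK library, and the spread within each group was small beside the gap. Mean *Ccl3* was 75.6 ± 11.3 CPM in hNK (SD, n = 4, as for all means here) and 770 ± 61.2 CPM in teNK. The rise was 10.3-fold, or 3.36 ± 0.10 on the log2 scale (± SE, edgeR adjusted p = 1.32e-13).

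*Ccl4* (ENSMUSG00000018930, chromosome 11, 83662584 to 83664683, plus strand) encodes MIP-1 beta, and its start lies 13.2 kb from that of *Ccl3*. Its levels were 27.5, 42.2, 58.5 and 48.8 CPM in hNK. They were 455, 427, 505 and 497 CPM in teNK. hNK 1 was the lowest library for both *Ccl3* and *Ccl4*, whereas the order of the teNK libraries differed between these genes. *Ccl4* rose 10.9-fold, by 3.45 ± 0.15 on the log2 scale (edgeR adjusted p = 1.50e-11), from 44.3 ± 13.0 to 471 ± 36.9 CPM. The ratio of *Ccl4* to *Ccl3* reads within a library does not depend on scaling between libraries. It was 0.438 to 0.666 in hNK and 0.543 to 0.666 in teNK. The groups overlapped, and the mean log2 ratio differed by 0.10, with SDs of 0.26 in hNK and 0.13 in teNK (two-sided exact permutation test, p = 0.543, where 4 against 4 allows 0.0286 at the least).

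*Ccl5* (ENSMUSG00000035042, chromosome 11, 83525778 to 83530518, minus strand), also called RANTES, was the most abundant member. It measured 367, 378, 369 and 230 CPM in hNK. The teNK libraries measured 2411, 2341, 2439 and 2450 CPM. Within teNK the 4 libraries were nearly level, with a coefficient of variation of 2.04%, while in hNK that coefficient was 21.1% and hNK 4 stood below the other libraries. Means were 336 ± 71.0 CPM and 2410 ± 49.1 CPM, and *Ccl5* rose 7.16-fold, by 2.84 ± 0.13 on the log2 scale (edgeR adjusted p = 1.50e-11). Without hNK 4 the log2 fold change was 2.70, which is 6.48-fold. By mean CPM, *Ccl5* ranked 413 among all genes in hNK and 23 in teNK, and *Ccl3* ranked 2933 and 112.

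*Xcl1* (ENSMUSG00000026573, chromosome 1, 164931644 to 164935527, minus strand) encodes lymphotactin, a C chemokine, which lacks a pair of the cysteines that other chemokines conserve. It measured 10.1, 17.6, 21.4 and 28.2 CPM in hNK. In teNK it measured 97.3, 70.2, 107 and 84.2 CPM. Both groups were more spread, relative to their means, than for *Ccl3*, but the lowest teNK library was still well above hNK 4, the highest hNK library. The rise was 2.29 ± 0.20 on the log2 scale, 4.91-fold (edgeR adjusted p = 6.44e-08). A predicted transcript on the other strand, *Gm20743*, shares 98 bases with the exons of *Xcl1*, 18.7% of their length. The strand setting of the counting is not given in the sources used here, so reads in those bases may have been counted for either gene or for neither. *Gm20743* had 67 reads in all libraries, where *Xcl1* had 630 in hNK and 5019 in teNK.

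*Ccl9* (ENSMUSG00000019122, chromosome 11, 83572919 to 83578636, minus strand), also called MIP-1 gamma, was present at a low level. The hNK libraries held 5, 8, 7 and 6 reads, or 0.416, 0.635, 1.15 and 1.08 CPM. The teNK libraries held 73, 74, 55 and 80 reads, or 4.80, 4.70, 4.42 and 6.11 CPM. The lowest teNK library was thus above all hNK libraries. The log2 fold change was 2.76 ± 0.28 (edgeR adjusted p = 4.53e-07), with the largest SE of the 5 tested members.

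*Cxcl10* (ENSMUSG00000034855, chromosome 5, 92346638 to 92348889, minus strand) was close to absent from hNK, where hNK 1 held 2 reads and the other libraries none. The teNK libraries held 28, 14, 18 and 8 reads, or 1.84, 0.889, 1.45 and 0.611 CPM. The groups did not overlap. The pooled reads, 2 and 68, gave a ratio of 21.8 (exact 95% interval 5.81 to 184, counting error only). The exact two-sided permutation test on CPM gave p = 0.0286, the smallest that 4 against 4 allows. Its exons share 133 bases, 5.91% of their length, with *Art3* on the other strand, and *Art3* had 2 reads in all.

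*Ccl1* (ENSMUSG00000020702, chromosome 11, 82176657 to 82305690, minus strand) had 5 reads in hNK, 4 of them in hNK 3 and 1 in hNK 1, and none in teNK. The hNK mean of 0.186 CPM is under the floor of 3 counts per library, so no fold is given. The exact 95% interval of the pooled ratio, teNK over hNK, was 0 to 0.70, which covers counting error only and rests largely on hNK 3. Over libraries, the exact two-sided permutation test gave p = 0.429. Without the low-count filter, edgeR called *Ccl1* lower in teNK. The annotated gene spans 129034 bases, far more than its 2369 bases of exon.

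**Figure D1:**
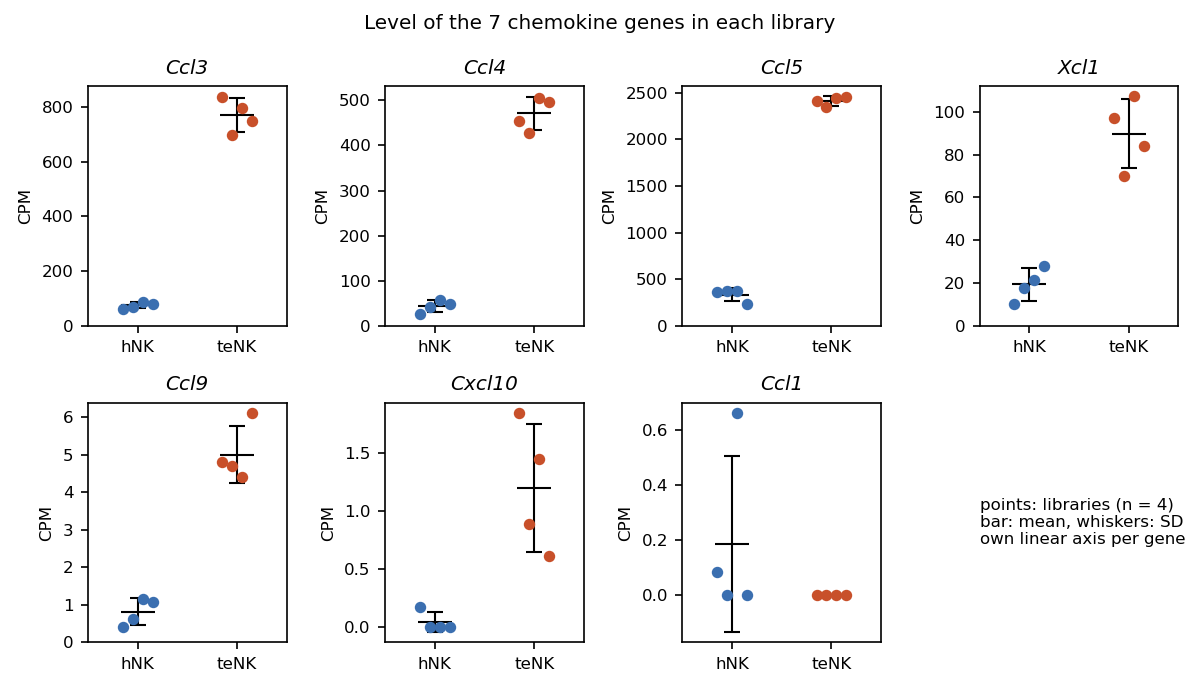
CPM of each of the 7 chemokine genes (vertical axis, linear, separate for each gene) in hNK and teNK. Points are the 4 libraries of a group, the bar is the mean and the whiskers the SD. Every teNK point lies above every hNK point for *Ccl3*, *Ccl4*, *Ccl5*, *Xcl1*, *Ccl9* and *Cxcl10*, and *Ccl1* has no read in teNK.

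Levels of different genes were compared per kilobase of merged exon length. In teNK the order of levels was *Ccl5* (2511 ± 51.1 CPM per kb), *Ccl3* (1005 ± 79.9), *Ccl4* (714 ± 55.9), *Xcl1* (172 ± 30.7), *Ccl9* (1.64 ± 0.248) and *Cxcl10* (0.532 ± 0.246), with *Ccl1* at 0. No 2 neighbours in that order overlapped between libraries in teNK. In hNK *Ccl5* (350 ± 74.0 CPM per kb) again stood above *Ccl3* (98.7 ± 14.7). Below it, the libraries of *Ccl3* and *Ccl4* overlapped, as did those of *Ccl4* and *Xcl1*, and *Ccl9* (0.270 ± 0.117), *Ccl1* (0.0784) and *Cxcl10* (0.0185) came last. The widest step in the order was from *Xcl1* to *Ccl9*, 137-fold in hNK and 104-fold in teNK.

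Together the 7 genes took 0.0414% to 0.0563% of gene reads in hNK and 0.344% to 0.366% in teNK. In CPM their sum was 389 to 539 in hNK and 3540 to 3855 in teNK. They made up 78.9% to 87.2% of the reads of all 39 chemokine genes listed in hNK and 94.9% to 96.5% in teNK.

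The mix of the 7 genes was compared as each gene's share of their summed reads in a library. *Ccl5* held 78.4%, 74.3%, 68.5% and 59.0% in hNK and 63.3%, 66.1%, 63.3% and 64.7% in teNK. The hNK libraries thus spread on both sides of the teNK libraries, which lay close together. The means were 70.1 ± 8.41% and 64.4 ± 1.35%, a difference of -5.69 points (exact permutation p = 0.286, adjusted p = 0.400 over the 7 genes). It was -2.91 points without hNK 1 and -9.38 points without hNK 4. With the reads of all 39 chemokine genes as denominator it turned to 2.62 points (exact permutation p = 0.771). *Ccl3* held 16.1 ± 3.47% in hNK and 20.5 ± 1.09% in teNK (exact permutation p = 0.114, adjusted 0.200). *Ccl4* held 9.40 ± 2.92% and 12.6 ± 0.651% (exact p = 0.0857, adjusted 0.200), and *Xcl1* 4.21 ± 2.16% and 2.39 ± 0.352% (exact p = 0.114, adjusted 0.200). None of the 7 shares passed. With all chemokine genes as denominator, the *Ccl3* and *Ccl4* shares differed by 6.16 and 4.15 points, each with an unadjusted exact permutation p of 0.0286. The exact 95% interval of a library's share was at most 2.1 points to either side, so the spread of the *Ccl5* share in hNK was wider than counting error.

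**Figure D2:**
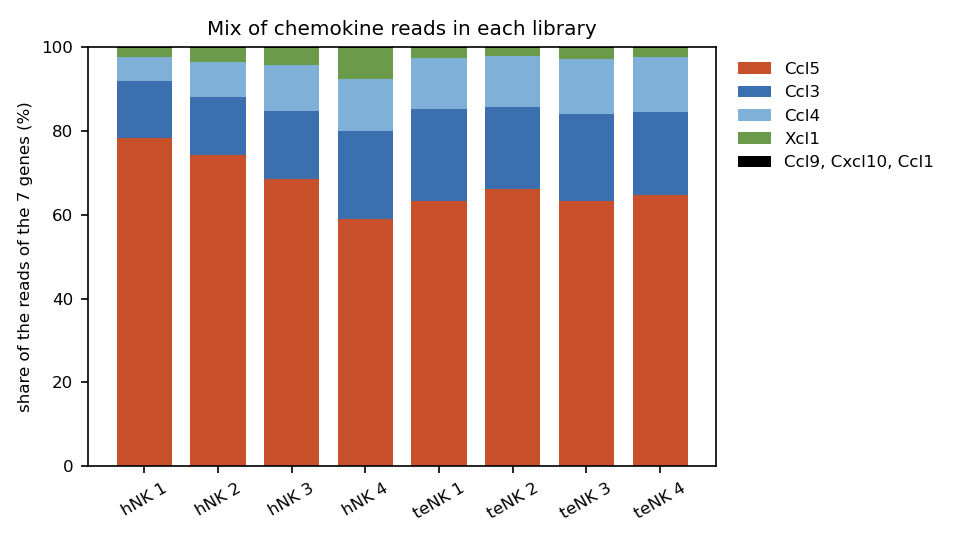
Share (%) of *Ccl5*, *Ccl3*, *Ccl4*, *Xcl1* and the 3 scarce genes in the summed reads of the 7 genes (vertical axis), 1 bar per library. The *Ccl5* share runs from 59.0% to 78.4% over the hNK bars and from 63.3% to 66.1% over the teNK bars.

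Of the 7 genes, *Ccl5*, *Ccl9*, *Ccl3* and *Ccl4* lie in 1 cluster on chromosome 11, with *Ccl6* between *Ccl9* and *Ccl3*. *Ccl6*, a myeloid CC chemokine, did not pass the filter. Its reads numbered 6 over the hNK libraries and 61 over teNK, and scaled for depth their ratio was 6.52 (exact 95% interval 2.83 to 18.5). The *Ccl6* mean in hNK, 0.147 CPM, is under the floor of 3 counts per library, so the size of that ratio is uncertain. Within 250 kb of the starts of these 4 members, 30 other genes were counted and 9 of them tested. Of the 9, 3 were higher and 1 lower in teNK and 5 were not called, with a median log2 fold change of -0.11. Over all tested genes the median was -0.02, with 26.4% called higher and 25.6% lower. *Heatr9*, singled out after its values were seen, is the nearest tested neighbour of *Ccl5*. It begins 3602 bases beyond the far end of *Ccl5* and lies on the same strand (chromosome 11, 83511736 to 83522175). Its hNK values were 15.9, 9.05, 13.5 and 9.03 CPM, and its teNK values 118, 118, 99.0 and 97.4 CPM. Those values do not overlap, and the log2 fold change was 3.17 ± 0.14 (edgeR adjusted p = 1.39e-11). *Taf15* and *Heatr6*, which flank the cluster, had log2 fold changes of -0.11 and 0.07 and were not called (adjusted p = 0.144 and 0.379). Around *Cxcl10*, the related genes *Cxcl9* and *Cxcl11* had 1 read and 0 reads in all 8 libraries. Around *Ccl1*, no gene passed the filter, and *Ccl8*, *Ccl11* and *Ccl12* had 0 reads.

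**Figure D3:**
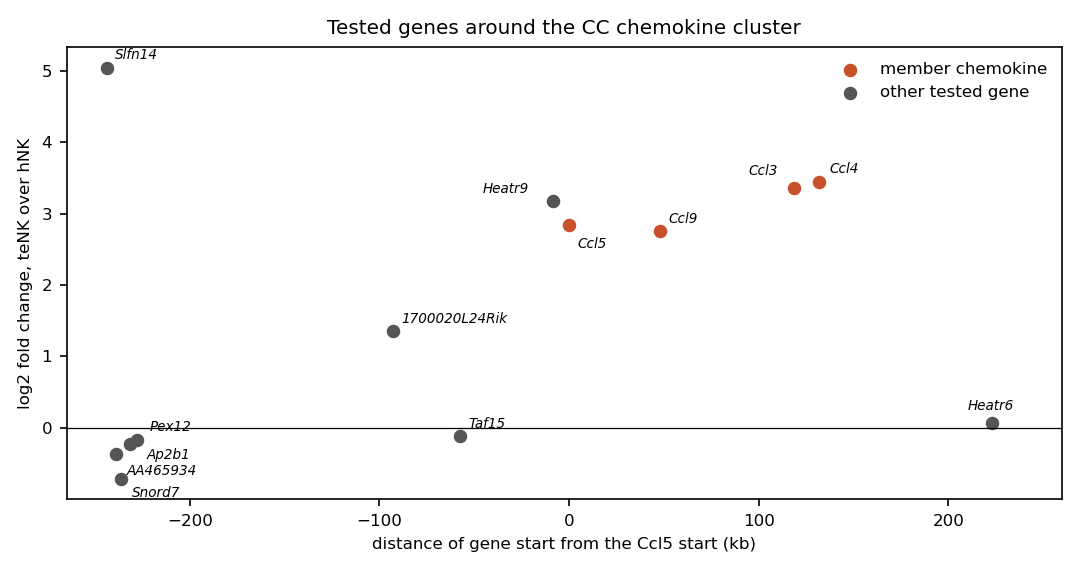
Log2 fold change, teNK over hNK (vertical axis), of tested genes against the distance of their start from the *Ccl5* start in kb (horizontal axis). Orange points are members and grey points other tested genes. *Ccl5*, *Ccl9*, *Ccl3*, *Ccl4* and *Heatr9* lie between 2.76 and 3.45, *Taf15* and *Heatr6* near 0, and the high point at the left edge, *Slfn14*, rests on 72 reads.

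The genes of most like pattern were sought for each tested member among 9374 genes, as the smallest root mean square difference of centred log2 CPM over the 8 libraries. The difference between groups dominates this measure. For *Ccl3* they were *Nr4a3* (0.18), *Itgax* (0.18) and *S1pr5* (0.18), which are a nuclear receptor gene induced by receptor signalling, the integrin CD11c and a receptor for egress from lymphoid tissue. For *Ccl4* they were *Nr4a3* (0.13), *Ccl3* (0.18) and *Itgax* (0.19). *Nr4a3* was at 16.1 ± 5.18 CPM in hNK, and teNK had 153 ± 14.2 CPM. The nearest to *Ccl5* were *Junb* (0.19), an AP-1 subunit, *Ifng* (0.19), interferon gamma, and *Nfkbia* (0.20), the NF-kappa-B inhibitor that NF-kappa-B itself induces. *Ccl9* was most like *Irf8* (0.18), an interferon regulatory factor, and *Serpinb9b* (0.22) was also among its nearest genes. The Src family kinase gene *Fgr* (0.24) and *Stom* (0.25) were among those nearest to *Xcl1*.

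Receptors were measured in the same cells. Of 23 chemokine receptor genes, 9 were tested, and 3 rose and 6 fell in teNK, with a median log2 fold change of -0.55. Over all tested genes the median was -0.02, with 26.4% called higher and 25.6% lower. *Cxcr3*, the receptor for CXCL10, fell from 36.3 ± 2.85 to 25.1 ± 2.54 CPM (edgeR adjusted p = 0.000140). The receptors of the other members were scarce. *Ccr1* had no read in hNK and 15 in teNK, *Ccr3*, a further CCL5 receptor, had 5 and 4, *Ccr8* had 3 and 1, and *Xcr1* had 0 and 4. Among other receptors, *Ccrl2*, an atypical receptor that holds chemerin at the cell surface, rose 5.43-fold. *Cx3cr1*, the fractalkine receptor of mature NK cells, had 15 reads in hNK and 923 in teNK, or 0.375 ± 0.409 and 16.5 ± 1.78 CPM. *Cxcr6*, *Ccr7* and *Ccr2*, receptors for CXCL16, for lymph node chemokines and for CCL2, fell by 3.55, 1.89 and 0.77 on the log2 scale.

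**Figure D4:**
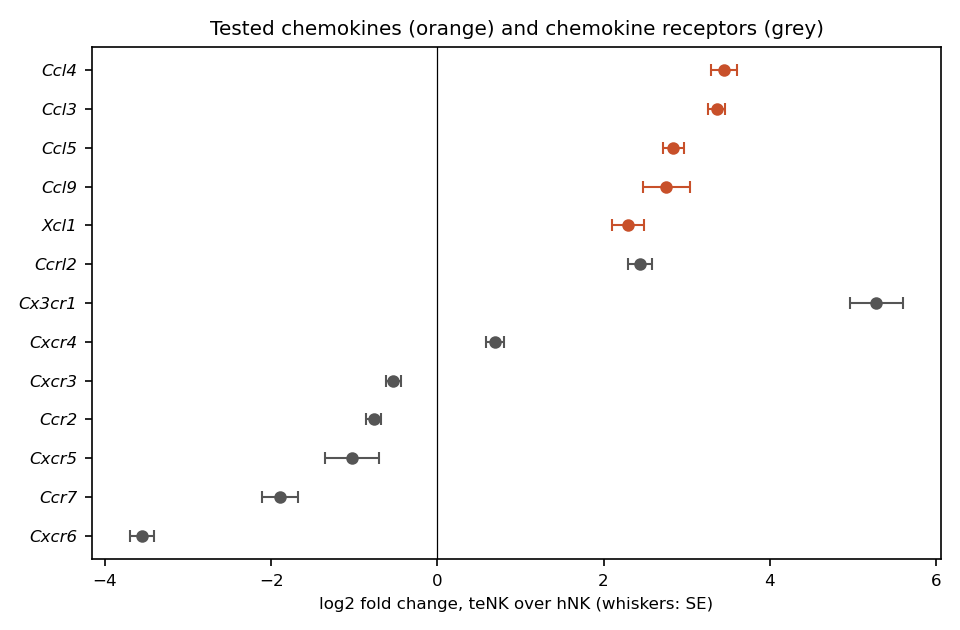
Log2 fold change, teNK over hNK, with its SE (horizontal axis) for the 5 tested members (orange) and 8 of the 9 tested chemokine receptors (grey). The 5 members lie between 2.29 and 3.45, *Cxcr3* at -0.53, and *Ccrl2*, *Cx3cr1* and *Cxcr4* are the receptors above 0.

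Of 32 other chemokine genes, 15 had no read in any library, and 5 were tested. *Ppbp* and *Pf4*, chemokines of platelet granules, rose 5.86-fold and 4.43-fold. *Ccl27a* rose from 1.95 ± 0.407 to 4.59 ± 0.826 CPM. *Mif*, a cytokine that also binds chemokine receptors, fell by 0.63 ± 0.09 on the log2 scale, and *Ccl25* by 0.37 ± 0.09 (edgeR adjusted p = 3.33e-05 and 0.00230).

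Of 32 genes known to act on chemokine transcription, message decay or storage, all were tested, 25 rose and 3 fell, and 4 were not called. Their median log2 fold change was 0.73. Over all tested genes it was -0.02, with 26.4% called higher and 25.6% lower in teNK. The list was written with earlier results of these libraries known, so it is not independent evidence of a direction. The AP-1 genes *Fos* and *Fosb* rose by 7.04 ± 0.15 and 8.31 ± 0.19 on the log2 scale. *Tnfaip3* and *Nfkbia*, feedback inhibitors of NF-kappa-B, rose 21.6-fold and 6.69-fold. *Zfp36*, whose protein speeds the decay of messages with AU-rich elements, rose from 44.1 ± 4.21 to 249 ± 16.3 CPM, and *Tbx21* (T-bet) rose 4.19-fold. The 3 that fell, *Nfatc2*, *Eomes* and *Srgn*, include serglycin, the proteoglycan that holds chemokines and granzymes in granules. The 4 not called were *Rela*, *Relb*, *Runx3* and *Elavl1*.

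Genes of other cells that can make these chemokines were read in the same libraries. The counts of called genes in these lists stand beside 26.4% called higher and 25.6% called lower in teNK over all tested genes. Of 10 platelet genes, 9 were tested and 8 rose, and their summed level was 99.9 to 136 CPM in hNK and 239 to 383 CPM in teNK. *Itgb3*, an integrin subunit and the most abundant of them in hNK, did not pass (92.0 ± 14.6 and 80.8 ± 8.86 CPM), and *Vwf* and *Tubb1* rose from 0.458 ± 0.251 to 40.4 ± 9.66 CPM and from 0.770 ± 0.469 to 32.2 ± 6.90 CPM. Platelets carry *Ccl5* and *Pf4* products, so the libraries were set side by side. teNK 4 had the least *Pf4* of its group, 12.8 CPM against 21.6 to 27.2 CPM. Its *Ccl5* was 2450 CPM, little different from the 2341 to 2439 CPM of the other teNK libraries. hNK 4 had the most *Pf4* of its group, 8.31 CPM, and the least *Ccl5*, 230 CPM. These are values of 1 library per group, and the part of platelets in the rise of *Ccl5* was not tested.

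**Figure D5:**
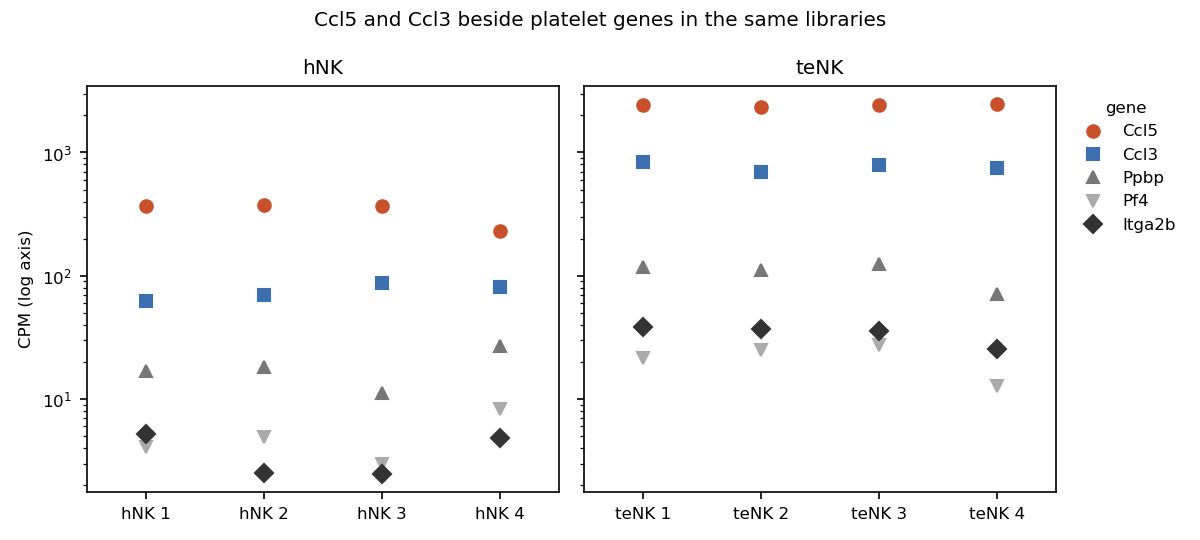
CPM (log axis) of *Ccl5*, *Ccl3* and the platelet genes *Ppbp*, *Pf4* and *Itga2b* in each hNK library (left) and teNK library (right). In teNK 4 the 3 platelet genes are lower than in the other teNK libraries, and *Ccl5* runs from 2341 to 2450 CPM over the teNK libraries.

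Myeloid genes bear on *Ccl9*, *Ccl6* and *Cxcl10*, which macrophages and monocytes make. Of 12 monocyte and macrophage genes, 4 were tested and 3 rose, with a summed level of 14.1 to 25.6 CPM in hNK and 62.3 to 81.7 CPM in teNK. *Ly6c2*, also made by lymphocytes, held most of that level, with 59.8 ± 7.12 CPM in teNK, and *Cd68* did not pass (4.34 ± 0.735 and 4.52 ± 0.460 CPM). *Lyz2* and *Csf1r*, chosen after their values were seen, measured 0.165 to 0.915 and 0 to 0.181 CPM in hNK, and 4.97 to 9.41 and 0.254 to 0.723 CPM in teNK. *C1qa*, *C1qb* and *C1qc* were at 0 in every hNK library and at most 0.127 CPM in teNK. *Adgre1*, *Cd14*, *Fcgr1* and *Ms4a7* were at most 0.723 CPM in hNK and 0.402 CPM in teNK, and their libraries overlapped. *Mpeg1* rose from 0.374 ± 0.522 to 0.996 ± 0.321 CPM, with overlapping libraries. The 10 neutrophil genes summed to 0 to 0.165 CPM in hNK and 1.90 to 7.04 CPM in teNK, with *S100a8* and *S100a9* at 0 in every hNK library. The part of myeloid cells in the rise of *Ccl9* was not tested.

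Basophils carry CD49b and lack CD3, and can make *Ccl3* and *Ccl4*. Of the 10 basophil and mast cell genes, 2 were tested. *Kit*, which NK cells also express, fell from 265 ± 55.5 to 110.5 ± 18.2 CPM, and *Gata2* rose from 0.0611 ± 0.0787 to 2.19 ± 0.692 CPM. The list summed to 190 to 309 CPM in hNK and 91.9 to 129 CPM in teNK. *Kit* made up nearly all of that sum, with 189 to 309 CPM in hNK and 87.3 to 126 CPM in teNK. The sum therefore says little about the other genes of the list. The defining basophil genes *Mcpt8*, *Prss34* and *Fcer1a* were at most 0.903 CPM in hNK and 0.306 CPM in teNK, with *Prss34*, *Fcer1a* and the mast cell gene *Tpsb2* at 0 in every hNK library. *Hdc*, the histamine-forming enzyme, and *Cpa3*, a granule protease, were not tested but did not overlap, with means of 0.141 and 0.0452 CPM in hNK and 0.741 and 0.358 CPM in teNK. *Ms4a2*, a subunit of the IgE receptor, had means of 0.0452 and 0.373 CPM, and its libraries overlapped. The part of basophils and mast cells in the chemokine levels was not tested. B cell genes were higher in 9 of 10 and summed to 85.5 to 124 CPM in hNK and 135 to 165 CPM in teNK, *Ighm* being near 96 CPM in both groups and *Cr2* rising from 4 reads to 828. Of 10 T cell genes, 6 were tested, with 1 higher and 1 lower (sums of 271 to 312 and 259 to 275 CPM), *Trbc1* measuring 236 ± 15.4 and 217 ± 6.95 CPM and *Trbc2* falling from 27.9 ± 1.97 to 15.6 ± 1.48 CPM. Of 10 dendritic cell genes, 4 were tested and 2 were higher (sums of 17.2 to 26.1 and 78.0 to 98.6 CPM). *Itgax*, which NK cells also express, made up most of that sum, and *Zbtb46* did not pass (7.04 ± 1.34 and 9.11 ± 0.732 CPM). The part of B cells, T cells and dendritic cells in the chemokine levels was not tested.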

How the data were processed

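Per the file headers and values, the authors deposited 1 file per library with raw read counts per Ensembl gene and 5 summary lines; those lines entered neither library sizes nor tests. Reads in no gene were 32.3% to 41.2% of a library and ambiguous reads 1.52% to 2.07%. Per the submitters' processing notes, HISAT2 2.1.0, SAMtools, HTSeq and the GRCm38 build were used, without settings. The library kit was stranded and based on poly(A) RNA, per the labels' protocols. The annotation release and the strand setting are not given in the sources used here. The labels describe several sequencing lanes for teNK libraries and none for hNK, so lane layout and group cannot be told apart. GENCODE M21, an annotation of GRCm38, named 54809 of 54838 identifiers.

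In R 4.3.3, edgeR 4.0.16 kept 13903 of 27313 genes with a read (filterByExpr by group), scaled by TMM and tested teNK against hNK by the quasi-likelihood F test on group alone, with Benjamini-Hochberg adjustment over all tested genes and a threshold of 0.05. Each SE was taken as the size of the log2 fold change over the root of its F statistic. CPM uses the TMM factors, and log2 CPM a prior count of 2. Shares and the read ratio were tested by exact permutation over libraries. Alternatives used limma 3.58.1 (voom) and DESeq2 1.42.0, other scalings, no filter, a replicate block, and each library left out. The scripts were tested on simulated data. Over pairs within groups, a chi-square per degree of freedom (genes with at least 20 reads) was 3.51 to 11.3, so no pair agreed within sampling noise. Named genes were the 7 members, 6 of their receptors, up to 6 called genes with the smallest adjusted p in each list, *Pf4* and *Ppbp*, the 2 highest genes of each marker list, the 3 genes of most like pattern per member and chemokine genes within 250 kb. Other genes named, such as defining markers of a list and genes behind small counts, were chosen after their values were seen. Results for 2 genes that the rule names are not reported here. The members and lists were chosen with earlier results of these data known.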

Additional observations from a re-analysis of the deposited data

Results flagged for a closer look

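A library was flagged where its gap to the nearest library of its group took up more of the group's range than Dixon's test allows, which chance does in about 1 of 20 groups. Of 130 groups of 4 looked at, 10 were flagged. *Ccl5* in hNK 4 was 230 CPM, where the other hNK libraries were 367 to 378 CPM. *Nr4a3* in teNK 2 was 132 CPM, against 158 to 162 CPM in the others of its group. *Ccl27a* in teNK 1 was 3.36 CPM, against 4.89 to 5.14 CPM. The other flags rest on a few reads. They were *Ccl1* in hNK 3 (0.660 CPM, a share of 0.122% of the reads of the 7 chemokines), *Cxcl10* in hNK 1 (0.166 CPM, a share of 0.0355%), *Ccr8* in hNK 2 (0.238 CPM) and in teNK 2 (0.0635 CPM), and *Cxcl9* in teNK 4 (0.0764 CPM).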

How the results depend on the processing

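The 5 tested members kept their direction and call in all 16 fits with another setting, 80 values in all. Leaving out 1 library gave log2 fold changes of 3.28 to 3.44 for *Ccl3*, 3.26 to 3.61 for *Ccl4*, 2.70 to 2.90 for *Ccl5*, 2.49 to 2.95 for *Ccl9* and 2.05 to 2.50 for *Xcl1*. Library totals as the only scaling gave 3.23, 3.32, 2.71, 2.63 and 2.16 in that order. Thinning every library to 5202131 reads, added after seeing the data, gave 3.34, 3.41, 2.85, 2.89 and 2.18. Without a filter, 1 member was called lower, *Ccl1* on its 5 reads, 6 members were called higher, *Cxcl10* being the sixth, and 6 receptor genes were called higher in place of 3; more genes enter that fit. With all chemokine genes as denominator, the share differences were 6.16 points for *Ccl3* and 4.15 for *Ccl4* (exact permutation p = 0.0286, unadjusted), and that of *Ccl5* turned to 2.62 points. The 7 genes held 78.9% to 87.2% of that denominator in hNK and 94.9% to 96.5% in teNK, so it lowers their shares more in hNK. Equal replicate numbers showed no sign of pairing, as their deviations correlated at 0.05, -0.11, 0.15 and 0.02 for numbers 1 to 4. Unequal numbers correlated at -0.18 to 0.22, so these values cannot exclude a shared animal or day. With a replicate block, 6982 genes were called in place of 7222, and *Ccl3*, *Ccl4*, *Ccl5*, *Ccl9* and *Xcl1* had log2 fold changes of 3.36, 3.46, 2.87, 2.72 and 2.28. With 1 library left out or with 4 pairs, the exact tests cannot go below 0.0571 or 0.125. The *Ccl4* to *Ccl3* difference was -0.02 to 0.18 with 1 library left out. Of 607 values for other named genes, 600 kept their side of the threshold, and *Itgb3*, *Trbc1* and *Zbtb46* passed in the other 7. Depth limits *Ccl1*, *Cxcl10* and the scarce receptors.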
